A study of Mus musculus with 4 samples.

Results

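The 6 genes that mark a neuron as GABAergic or glutamatergic, Gad1, Gad2, Slc32a1, Slc17a6, Slc17a7 and Slc17a8, were examined among the 20136 genes of 4 single-cell libraries. The genes were taken from a list by name. Of the 6, 5 were listed in every table and Slc17a7 in that of library 4 alone. The punched tissue was the stria terminalis bed nucleus (BNST), which belongs to the extended amygdala. The mice were wildtype C57BL/6J males, of an age and treatment that the labels do not give, and 6 animals were pooled for each library, so that n = 4 pools of 1 group. Capture was by Drop-seq, in which droplets tag the RNA of a cell with its barcode and each molecule with a unique molecular identifier (UMI). Comparisons are between cell classes of the same pool. Fewer cells of a type in a pool and less RNA per cell cannot be told apart in a summed level, and p-values measure only the spread between these pools.

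GABA, the main inhibitory transmitter of the forebrain, is made from glutamate by glutamic acid decarboxylase, which Gad1 (GAD67) and Gad2 (GAD65) encode. Gad1 protein is thought to make most of the basal GABA pool and Gad2 protein to sit at nerve terminals. Slc32a1 encodes the vesicular GABA transporter VGAT. Slc17a7, Slc17a6 and Slc17a8 encode the vesicular glutamate transporters VGLUT1, VGLUT2 and VGLUT3, the first mostly in cortical and hippocampal projection neurons, the second mostly in subcortical excitatory neurons, and the third often in neurons that also use another transmitter. The BNST is known as a mainly GABAergic nucleus with a minority of glutamatergic cells.

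The tables held 1800 to 3600 barcodes and 2640399 to 5652342 UMIs per library. Barcodes with at least 400 genes and at most 10% mitochondrial UMIs that were not called doublets were kept, 4181 in all, and no kept barcode was shared between libraries. Cells were assigned to a class by counting which of 8 marker genes per class had a UMI. This gave 2496 neurons (412 to 816 per library, median 3233 UMIs), 908 oligodendrocytes, 401 astrocytes, 86 oligodendrocyte precursors and smaller glial and vascular classes, and the non-neuronal classes together are called glia here. A further 190 cells had no clear class.

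In GENCODE vM21 on GRCm38, Gad2 lies on chromosome 2 at 22622205 to 22693874, Gad1 at 70553072 to 70602014 and Slc32a1 at 158610767 to 158615748, all on the plus strand. Slc17a7 lies on chromosome 7 at 45163949 to 45176142 and Slc17a6 at 51622006 to 51671119, both on the plus strand, and Slc17a8 lies on chromosome 10 at 89574020 to 89621253 on the minus strand. The non-coding genes Gad1os and Gm14205 overlap Gad1 and Slc32a1 on the opposite strand. Since the strand setting of the counting was not stated, reads from these partners cannot be told apart from those of the 2 genes.

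Shown are the sequences just upstream of a RefSeq start of Gad1, Gad2, Slc32a1 and Slc17a6. These genes were taken because the first 3 moved together over neuron classes and the last moved against them. The sequences are from the RefSeq promoter table on GRCm38.p6, in which all 6 genes were found. They were cut to hold no annotated exon base of the gene. That of Gad1 therefore ends 87 bases, and that of Gad2 122 bases, before the RefSeq start. The RefSeq start of Gad1 is at 70562129, inside the GENCODE gene that starts at 70553072. The Gad1 sequence is thus from within that gene and does not flank it. Slc17a6 is shown for the first of its RefSeq starts. Capitals mark 4 searched motifs on either strand: TAATTA, the core bound by many homeodomain proteins such as the Dlx and Lhx families, CANNTG, the E-box of basic helix-loop-helix factors, GGGCGG and TATAAA.
Gad1, chr2:70561892-70562041, plus strand: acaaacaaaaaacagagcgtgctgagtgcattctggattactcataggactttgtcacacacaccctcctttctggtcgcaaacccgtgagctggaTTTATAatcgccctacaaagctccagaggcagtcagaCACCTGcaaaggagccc
Gad2, chr2:22622077-22622204, plus strand: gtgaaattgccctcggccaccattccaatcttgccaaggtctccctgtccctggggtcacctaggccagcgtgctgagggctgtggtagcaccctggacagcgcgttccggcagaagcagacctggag
Slc32a1, chr2:158610608-158610757, plus strand: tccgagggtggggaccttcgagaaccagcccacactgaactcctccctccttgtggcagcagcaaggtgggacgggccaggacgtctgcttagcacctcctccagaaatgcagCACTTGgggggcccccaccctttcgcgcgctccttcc
Slc17a6, chr7:51621680-51621829, plus strand: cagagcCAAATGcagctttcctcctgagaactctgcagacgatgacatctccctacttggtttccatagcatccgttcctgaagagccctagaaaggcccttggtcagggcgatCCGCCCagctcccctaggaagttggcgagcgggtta

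In the 250 bases before these RefSeq starts of the 4 genes, TAATTA was found 0 times for each, where 4.84% of the 32851 RefSeq promoters held it, and the second RefSeq start of Slc17a6 had it 1 time. GGGCGG was found for Gad1 and Slc17a6, where 32.7% of promoters held it. CANNTG was found at least once for all 4, as in 66.2% of promoters. TATAAA was found for Gad1 alone among the 4, where 12.4% of promoters held it. A match is a description of the letters and not a bound site.

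The 3 GABA genes were high in neurons of all 4 libraries and near 0 in glia. Levels are in CPM, which scales the UMIs of the gene by all UMIs of the class (counts per 1e6). Gad2 was at 1704, 2165, 2165 and 2018 CPM in neurons of libraries 1 to 4 (2013 ± 217, mean ± SD, n = 4) and at 37.0, 31.3, 51.4 and 62.2 CPM in glia. Gad1 was at 543.4, 583.7, 708.2 and 678.3 CPM in neurons (628.4 ± 77.6) and at 6.85, 6.70, 12.4 and 27.4 CPM in glia. Slc32a1 was at 419.7, 445.6, 408.9 and 507.0 CPM in neurons (445.3 ± 43.9) and at 1.37 to 7.08 CPM in glia. The neuron and glia values of each of these genes did not overlap, and library 1 was lowest for both Gad genes. Here and below, values that do not overlap are a description, since the share of all genes that do so was not counted. Because Drop-seq counts the 3′ ends of RNA, levels are compared between classes for a gene and not between genes.

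The glutamate transporter genes were sparse. Slc17a6 was at 84.4, 54.1, 41.8 and 32.6 CPM in neurons (53.3 ± 22.6), and 3 of its UMIs were in glia. Slc17a8 was at 25.2, 56.6, 80.3 and 73.3 CPM in neurons (58.9 ± 24.6), and 3 of its UMIs were in glia. Library 1 was thus the highest of the 4 for Slc17a6 and the lowest for Slc17a8. Slc17a7 had 8 UMIs in all barcodes, 3 of them in kept neurons, all in library 4, and was not tested anywhere. In the other 3 libraries it had 0 UMIs in 1751 neurons, which allows a level of up to 0.396 CPM.

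**Figure D1:**
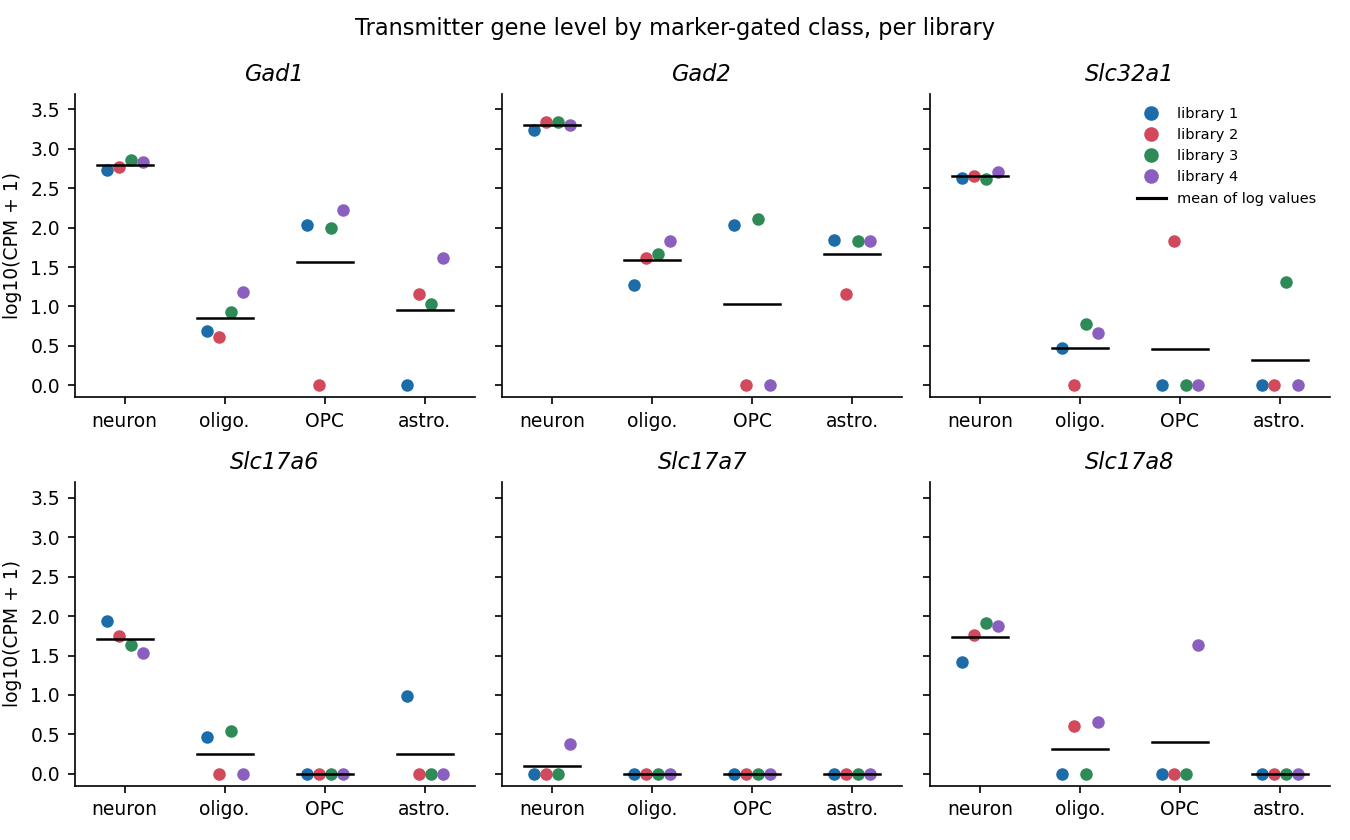
Level of each gene as log10(CPM + 1) on the vertical axis in neurons, oligodendrocytes (oligo.), oligodendrocyte precursors (OPC) and astrocytes (astro.), 1 point per library, with a line at the mean of the 4 log values. Gad1, Gad2 and Slc32a1 are above every glial point in all 4 libraries, while Gad1 in OPC is at 0 in library 2 and between 97.0 and 168 CPM in the other 3.

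The difference between neurons and glia was tested on UMIs summed per library and class with edgeR's quasi-likelihood test and Benjamini-Hochberg adjustment over all genes. Against the mean of the glial classes, all 3 GABA genes were higher in neurons, beside 43.5% of the 4807 genes tested, and the glutamate genes did not pass the filter on low counts. With all glia of a library summed, an alternative added after the data were seen, 5 of the 6 genes were tested and all 5 were higher in neurons, beside 37.2% of 10148 genes. The log2 folds in that fit were 5.36 for Gad1 (SE 0.18), 5.17 for Gad2 (SE 0.14), 6.54 for Slc32a1 (SE 0.23), 4.99 for Slc17a6 (SE 0.43) and 4.92 for Slc17a8 (SE 0.44), and the largest adjusted p was 7.49e-16.

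Among glia, Gad1 stood higher in oligodendrocyte precursors, the dividing progenitors of myelinating cells. It was at 106, 0, 97.0 and 168 CPM there and at 3.91, 3.05, 7.46 and 14.2 CPM in oligodendrocytes. The precursor value was above the oligodendrocyte value in libraries 1, 3 and 4 and below it in library 2. The log2 fold was 3.15 (SE 0.77, edgeR adjusted p = 0.000187), in a contrast in which 39.7% of genes were called in either direction, and it rests on 10 UMIs in 86 cells. It was called under all 12 alternatives run, at 2.80 to 4.10. Gad2 did not pass that edgeR test (0.10, SE 0.67, adjusted p = 0.943). Between astrocytes and oligodendrocytes 0 of the 3 GABA genes were called by edgeR or by DESeq2, and 0 had an unadjusted p under 0.05, where 50.8% of genes were called. Gad1 made up 58.8% of the 17 Gad1 and Gad2 UMIs in precursors (95% exact binomial interval 32.9 to 81.6%), 14.5% of 69 in oligodendrocytes (7.17 to 25.0%) and 23.8% of 24666 in neurons (23.3 to 24.4%). Intervals and floors cover counting error only.

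Since detection rises with depth, shares of cells were computed at equal depth as the chance that 1000 UMIs drawn from a cell include the gene, over the 2162 neurons with at least that many UMIs. At this depth 83.7, 89.3, 91.0 and 90.9% of draws held at least 1 of the 3 GABA genes (88.7 ± 3.44%), against 5.09 ± 0.49% in glia. At least 1 glutamate gene was held by 6.71, 7.44, 6.09 and 5.99% of neuron draws (6.56 ± 0.67%), against 0.28 ± 0.29% in glia. Library 1 was low for GABA genes and not apart for glutamate genes. Without thinning, 92.8 ± 1.63% of neurons held a GABA UMI and 8.01 to 12.2% a glutamate UMI, at a median depth of 3233 UMIs against 1144 in glia, where 7.15 ± 1.91% held a GABA UMI. Gad2 was in 79.0 ± 4.40% of neuron draws, Gad1 in 42.3 ± 4.20%, Slc32a1 in 34.1 ± 3.90%, Slc17a8 in 3.35 ± 1.18% and Slc17a6 in 3.20 ± 1.39%.

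Neurons with none of the 6 genes were rare and shallow. By UMIs, 2146 neurons held GABA genes only, 91 glutamate genes only, 161 both and 98 neither, and the last had a median of 802 UMIs. Of the 1715 neurons with at least 2000 UMIs, 12 held neither. Among these 12, Nos1, which encodes neuronal nitric oxide synthase, had a UMI in 3 cells, Ddc, an enzyme of monoamine synthesis, in 2, and Chat, Th and Slc18a2, of the acetylcholine and monoamine systems, in 0. In the other 1703 neurons of that depth, Nos1 had a UMI in 243 and Ddc in 291. Of the 12 neurons, 6 held a UMI of 1 of 12 transcription factors of excitatory lineages, such as Tbr1, against 6.65% of the 1715.

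The GABA genes were found together slightly more often than their separate shares predict. For each pair, the share of draws with both genes was divided by the product of the shares. The ratio was 1.12, 1.08, 1.04 and 1.04 for Gad1 with Gad2, 1.16, 1.10, 1.12 and 1.06 for Gad1 with Slc32a1, and 1.09, 1.05, 1.04 and 1.06 for Gad2 with Slc32a1. All were above 1 in every library. The draws are from all neurons, also those with Slc17a6 and no GABA gene, and the part of such cells in the ratios was not tested. Library 1, with the lowest share of draws with a GABA gene (83.7%), had the highest ratio for each pair. A ratio cannot exceed 1 over the larger share, and Gad2 was in 79.0% of draws on average. The test was an exact permutation of signs over the libraries, two-sided, whose smallest p for 4 is 0.125, and each of these pairs reached it. Of 12 pairs computed, 9 could be tested, and the adjusted p of these 3 was 0.188.

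Slc17a6 and Slc17a8 were alike in how few neurons held them and differed in what else these neurons held. Of draws with Slc17a8, 86.9, 93.1, 92.0 and 88.6% also held a GABA gene (90.2 ± 2.92%). Of draws with Slc17a6, 15.6, 23.9, 20.8 and 36.2% did (24.1 ± 8.74%). The 2 sets of values did not overlap, and the difference was 66.0 ± 9.10 points, with Slc17a8 higher in 4 of 4 (exact sign-flip p = 0.125). Set against the product of the shares, GABA genes with Slc17a8 gave ratios of 1.04, 1.04, 1.01 and 0.975, and GABA genes with Slc17a6 gave 0.186, 0.268, 0.229 and 0.398. The first ratio was on either side of 1 (exact sign-flip p = 0.375) and the second was below 1 in 4 of 4 libraries (exact sign-flip p = 0.125). By the mean of log values the ratio was 1.02 for Slc17a8 and 0.260 for Slc17a6. At 500 UMIs the first fell below 1, to 0.920. In a setting added after the data were seen, neurons with a UMI of the myelin genes Mog, Mag, Ermn or Opalin were left out. A GABA gene was then in 20.3 ± 9.07% of Slc17a6 draws and 89.9 ± 3.46% of Slc17a8 draws. The 2 transporter genes shared 3 neurons, all in library 1.

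The GABA gene found with Slc17a6 was almost always Gad2. Of Slc17a6 draws, 14.7, 23.7, 19.5 and 36.0% held Gad2, 1.23, 3.75, 2.00 and 0% held Gad1, and 0.286, 0, 1.09 and 9.80% held Slc32a1. Of Slc17a8 draws, 80.1, 77.7, 84.4 and 78.0% held Gad2, 27.8, 34.0, 29.9 and 40.8% held Gad1, and 22.4, 45.1, 31.0 and 32.3% held Slc32a1. The share of Gad1 among Slc17a8 draws was below the share among all neuron draws in each library, with a ratio of 0.777 by the mean of log values (exact sign-flip p = 0.125).

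**Figure D2:**
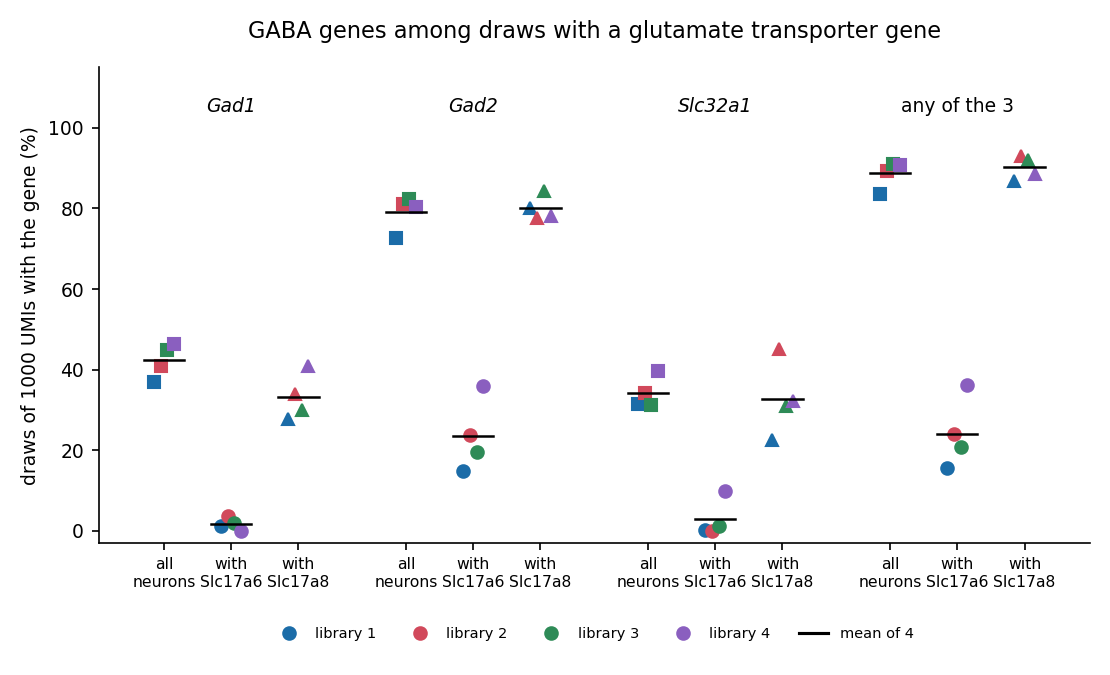
Percent of draws of 1000 UMIs that held Gad1, Gad2, Slc32a1 or any of the 3 (vertical axis), for all neuron draws (squares), draws with Slc17a6 (circles) and draws with Slc17a8 (triangles), coloured by library, with a line at the mean of 4. Draws with Slc17a6 lie between 14.7 and 36.0% for Gad2 and at 0 to 3.75% for Gad1, while draws with Slc17a8 reach 86.9 to 93.1% for any GABA gene.

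Whole neurons with at least 2 UMIs of Slc17a6 showed the same split cell by cell. There were 98 such neurons (51, 21, 11 and 15 in libraries 1 to 4), a threshold chosen after values were seen. Of these, 67 held 0 UMIs of Gad2, of Gad1 and of Slc32a1, at a median of 5195 UMIs per cell. A further 8 held 1 Gad2 UMI and 23 held 2 to 34. The 23 cells were at 790, 3061, 3149 and 1995 CPM of Gad2 in libraries 1 to 4, where GABA-leaning neurons (at least 2 UMIs of the 3 GABA genes and more of these than of glutamate genes) were at 1900, 2294, 2305 and 2168 CPM. They held 237 Gad2 UMIs, 10 Gad1 UMIs and 3 Slc32a1 UMIs. Gad2 in these cells was thus above GABA-leaning neurons of the same library in libraries 2 and 3 and below them in libraries 1 and 4, with few UMIs of the other GABA genes. They were chosen for Gad2, so its level is a description.

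Of the neurons with at least 2 Slc17a6 and 5 Gad2 UMIs, 15 of 17 held no UMI of Gad1 or Slc32a1 (7 of 7, 3 of 4, 1 of 2 and 4 of 4 in libraries 1 to 4), a grouping also chosen after values were seen. Since 13 of the 17 are GABA-leaning too, they were set against the other GABA-leaning neurons with at least 5 Gad2 UMIs, of which 59 of 1333 (4.43%) held none. Gad1 made up 6.33, 6.94, 1.72 and 0% of Gad1 and Gad2 UMIs in Slc17a6 neurons, below the value of GABA-leaning neurons with under 2 Slc17a6 UMIs in 4 of 4 libraries by 20.2 ± 4.99 points (exact sign-flip p = 0.125). Pooled, it was 4.30% (95% exact interval 2.16 to 7.56%), against 24.0% in those GABA-leaning neurons, 25.8% in the 58 barcodes called doublets and 21.0% in barcodes with under 400 genes. With the 3 cells that held a Dlx-family UMI left out, it was 2.41% (0.889 to 5.17%). A UMI of the myelin genes Mog, Mag, Ermn or Opalin was in 4 of the 24 neurons with at least 2 GABA and 2 Slc17a6 UMIs. It was in 2 of the 67 with no GABA UMI. At 1000 UMIs these genes were in 2.73 and 1.06% of draws, beside 1.88% in GABA-leaning neurons. The part of RNA from other cells in the Slc17a6 neurons was not tested.

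**Figure D3:**
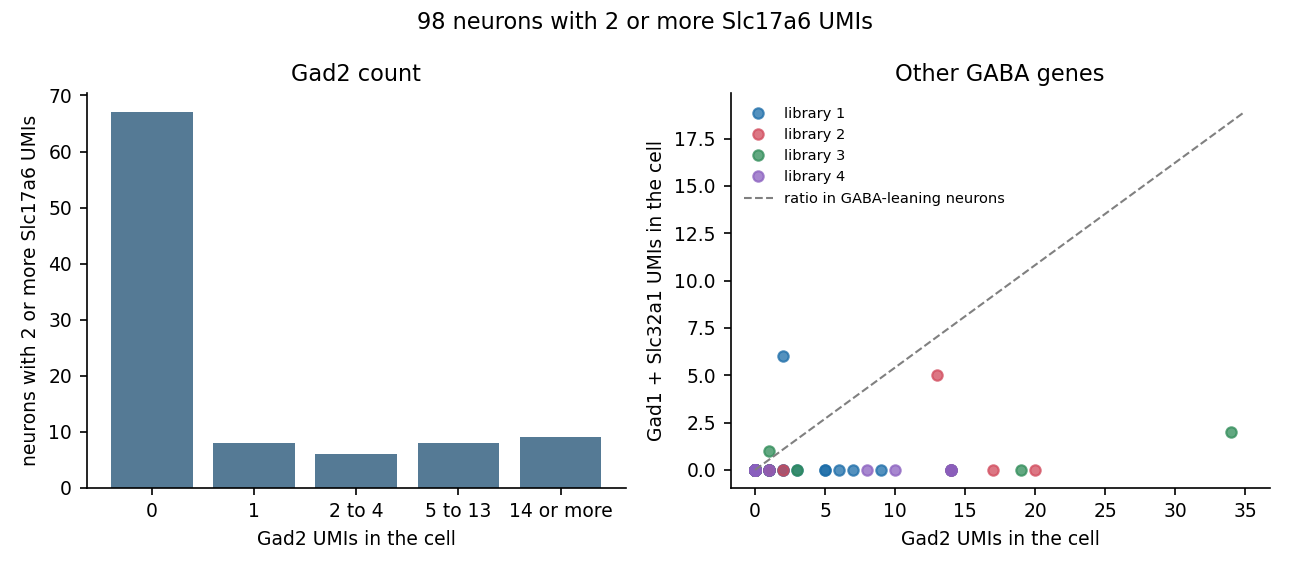
Left, number of neurons with at least 2 Slc17a6 UMIs (vertical axis) by Gad2 UMIs in the cell (horizontal axis). Right, Gad1 and Slc32a1 UMIs together (vertical axis) against Gad2 UMIs (horizontal axis) in the same 98 cells, coloured by library, with the pooled ratio of GABA-leaning neurons as a dashed line; 94 of the 98 cells lie at 0 on the vertical axis, up to 20 Gad2 UMIs.

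Summed over all neurons with a Slc17a6 UMI (127) against those without, 3 of 3 GABA genes fell by edgeR's quasi-likelihood test, beside 3.7% of 9097 genes called. Gad1 was at 20.7, 47.2, 14.7 and 0 CPM with Slc17a6 and at 599 to 741 CPM without, a log2 fold of -4.88 (SE 0.24, adjusted p = 2.33e-63). Slc32a1 was at 2.59, 0, 29.4 and 22.7 CPM with and 427 to 528 CPM without (-5.90, SE 0.31, adjusted p = 3.97e-56). Gad2 was at 271, 727, 838 and 648 CPM with and 1856 to 2245 CPM without (-1.97, SE 0.11, adjusted p = 1.41e-49). With and without values did not overlap for any of the 3. Library 1, which held 64 of the 127 cells, was the lowest for Gad2.

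Summed over the 126 neurons with a Slc17a8 UMI against those without, 1 of 3 GABA genes changed, beside 4.4% of 8623 genes called. Gad1 was at 381, 425, 402 and 555 CPM with Slc17a8 and at 549, 598, 728 and 686 CPM without (-0.53, SE 0.11, edgeR adjusted p = 0.000587). It was lower in 4 of 4 libraries, although the ranges overlap, and the call was lost with neurons thinned to 1000 UMIs (-0.61, adjusted p = 0.343). Slc17a6 did not pass the test in that split (-0.44, SE 0.40, edgeR adjusted p = 0.733), with 23 UMIs that were all in the 3 shared neurons of library 1. Slc17a8 was lower in neurons with a Slc17a6 UMI, at 3 UMIs in 127 cells (-3.29, SE 0.58, edgeR adjusted p = 2.40e-06).

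Transcription factors of the Dlx family drive the GABA fate of ventral forebrain neurons and are known to activate the Gad genes. Neurons with a UMI of Dlx1, Dlx2, Dlx5, Dlx6 or Dlx6os1 and none of 12 excitatory-lineage factors (1188 cells) were compared with 1180 neurons that had neither. Dlx6os1 overlaps Dlx6 on the opposite strand, and with the strand setting not stated their reads cannot be told apart. Of the 5 genes tested 3 changed, beside 1.37% of 9456 genes called. Slc17a6 was at 0.758, 0, 0 and 0.953 CPM in Dlx-family neurons and at 56.0, 27.4, 42.5 and 24.0 CPM in the others (-5.89, SE 0.42, edgeR adjusted p = 3.88e-21). Slc17a8 was at 10.2, 30.3, 46.6 and 17.2 CPM against 70.7, 101, 151 and 143 CPM (-2.26, SE 0.17, adjusted p = 6.10e-20). Neither gene's values overlapped between the gates. Gad1 was at 637, 642, 811 and 773 CPM against 473, 563, 599 and 637 CPM, higher in 4 of 4 libraries (0.34, SE 0.08, adjusted p = 0.00281), and the call was lost with DESeq2 and without the replicate block (adjusted p = 1.00 in both). Gad2 (0.19, SE 0.08, adjusted p = 0.373) and Slc32a1 (0.18, SE 0.08, adjusted p = 0.507) did not pass the test. Dlx-family neurons were deeper, with 4130 UMIs against 2224 as the median of the library medians, and the part of depth in these values was not tested beyond thinning to 1000 UMIs, under which Gad1 was still called (0.49, adjusted p = 0.0168) and Slc17a6 and Slc17a8 were too sparse to be tested.

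The 12 excitatory-lineage factors (Tbr1, Neurod1, Neurod2, Neurod6, Eomes, Nhlh2, Lhx5, Lhx9, Barhl2, Otp, Sim1 and Fezf2) are transcription factors of cortical, thalamic or hypothalamic glutamatergic lineages. Neurons with such a UMI and no Dlx UMI (110 cells, 11 in library 3) differed from Dlx-family neurons in 4 of the 5 genes tested, beside 3.07% of 9456 genes called. Slc17a6 was at 820, 933, 688 and 443 CPM with an excitatory-lineage factor, against at most 0.953 CPM in Dlx-family neurons, which held 3 UMIs in all (edgeR adjusted p = 3.11e-53). Gad1 was at 11.9, 99.6, 80.9 and 108 CPM (-3.82, SE 0.20, adjusted p = 2.39e-29) and Slc32a1 at 2.97, 37.3, 80.9 and 78.7 CPM (-4.09, SE 0.25, adjusted p = 1.23e-25). Gad2 was at 202, 859, 1031 and 443 CPM (-2.24, SE 0.13, adjusted p = 1.60e-27), the smallest fall of the 3. Slc17a8 did not pass the test (-1.86, SE 0.74, edgeR adjusted p = 0.217), though it did without library 1, on 0 UMIs in the remaining excitatory-factor neurons. The groups did not overlap for the 4 called genes, and library 1 was the lowest of the 4 for all 3 GABA genes.

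The balance of the GABA genes was then followed over neuron types by splitting neurons on a UMI of 1 marker at a time. Of 29 listed markers, 27 had at least 10 cells in every library. The share of all genes called differed between the splits, from 0.327% with Tshz1 to 19.9% with Ppp1r1b. Over these fits, in which 5.26% of all gene tests were called, Gad1 was called in 8 of 27 (4 higher, 4 lower), Gad2 in 12 of 27 (7 higher, 5 lower) and Slc32a1 in 2 of 27 (1 higher, 1 lower). Slc17a6 was called in 19 of 26 (3 higher, 16 lower) and Slc17a8 in 20 of 26 (6 higher, 14 lower). The typical change of the GABA genes was small, with a median size of 0.17 for Gad1, 0.13 for Gad2 and 0.11 for Slc32a1 on the log2 scale, against 1.70 for Slc17a6 and 2.14 for Slc17a8. Of the UMIs in neurons, 508 of 583 of Slc17a6 and 475 of 492 of Slc17a8 were each in 1 of the clusters described below. In splits with 0 UMIs of such a gene on the marker side, it passed the count filter through the other side alone. The call counts and sizes of these 2 genes are thus a description and not separate results for each marker. The marker splits share cells, since a neuron can hold several markers, and without the replicate block the GABA genes had 3 calls in place of 22, those of the Slc17a6 split.

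Gad1 was called higher with 4 markers, Npy, Lhx6, Nkx2-1 and Sst. In neurons with Npy, the gene of neuropeptide Y (217 cells), Gad1 was at 795, 715, 1104 and 943 CPM, against 513, 575, 676 and 649 CPM without (0.59, SE 0.08, edgeR adjusted p = 2.76e-06). With Lhx6, a transcription factor of the medial ganglionic eminence (268 cells), it was at 729, 729, 923 and 872 CPM, against 512, 560, 649 and 649 CPM (0.47, SE 0.07, adjusted p = 1.76e-06). The ranges did not overlap in either split, and both calls held after thinning to 1000 UMIs (0.63 and 0.74). Gad1 was also higher with Nkx2-1 (0.49, SE 0.11, adjusted p = 0.00136, in 3 of 4 libraries) and with Sst, the gene of somatostatin (0.32, SE 0.08, adjusted p = 0.0262, in 4 of 4 libraries). Without library 1 neither of these 2 passed the test, and Sst did not without library 3 or 4 or with glutamate-leaning neurons (at least 2 UMIs of Slc17a6 and Slc17a7 and more of these than of GABA genes) left out (0.28, adjusted p = 0.0655). With Lhx8, another factor of that eminence, Gad1 did not pass the test (0.11, SE 0.09, edgeR adjusted p = 0.537, higher in 3 of 4 libraries). Beside Slc17a6 and Slc17a8, Gad1 was lower with Penk, the gene of proenkephalin (-0.23, SE 0.06, adjusted p = 0.00531) and with Meis2 (-0.17, SE 0.05, adjusted p = 0.0229), in 4 of 4 libraries each. Neither was called by DESeq2, the first was lost without library 1 or 2, and the second without library 3.

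Gad2 followed a partly different set of markers. It was higher with Tac2 (0.35, SE 0.06, edgeR adjusted p = 4.40e-05), Sst (0.33, SE 0.06, adjusted p = 0.000207), Crh (0.28, SE 0.05, adjusted p = 0.000188), Cck, Isl1, Lhx6 and Calb1, in 4 of 4 libraries each. It was lower with Prkcd, the gene of protein kinase C delta (1554, 1632, 1466 and 1585 CPM with, 1708 to 2210 CPM without, -0.38, SE 0.10, adjusted p = 0.00916), and with Penk, Foxp2, Zic1 and Slc17a6. The Prkcd call was lost without library 2, 3 or 4 and with DESeq2. In the Prkcd split 8.16% of all genes were called, beside 2.35% with Tac2, 0.874% with Sst and 5.64% with Crh. In the Npy split, where Gad1 rose, Gad2 did not pass the test, and in the Prkcd split Gad1 did not. After thinning to 1000 UMIs, a depth at which the Prkcd and Slc17a6 splits could not be fitted, 0 of the other 10 Gad2 calls remained. The folds at that depth were 0.34 with Tac2, 0.29 with Sst, 0.31 with Crh and 0.22 with Calb1, near or above those at full depth, and 0.02 with Lhx6. With glutamate-leaning neurons left out, 8 of the 11 Gad2 calls that could be fitted were kept, and those with Zic1 (-0.04, adjusted p = 0.844), Lhx6 (0.13, adjusted p = 0.219) and Isl1 (0.14, adjusted p = 0.0889) were lost. In the 489 neurons with Pnoc, the gene of prepronociceptin that the study is named for, Gad1 (-0.04, SE 0.06, edgeR adjusted p = 0.846), Gad2 (0.13, SE 0.05, adjusted p = 0.293) and Slc32a1 (0.09, SE 0.07, adjusted p = 0.688) did not pass the test. Slc32a1 was called higher with Lhx6 (0.28, SE 0.08, edgeR adjusted p = 0.0329, in 3 of 4 libraries), a call lost without library 1, 2 or 3 and with glutamate-leaning neurons left out (0.20, adjusted p = 0.200), and lower with Slc17a6.

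**Figure D4:**
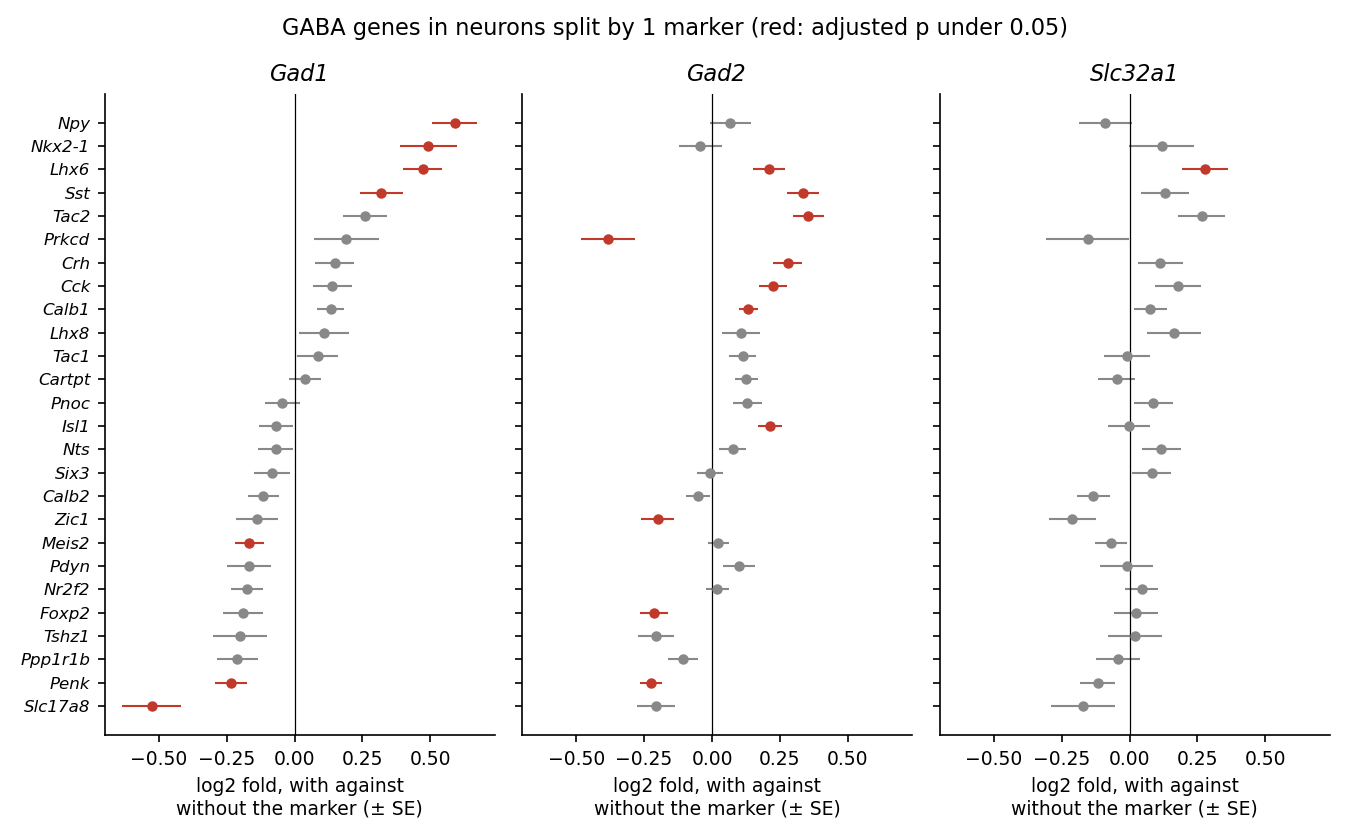
Log2 fold of Gad1, Gad2 and Slc32a1 (horizontal axis, ± SE from the edgeR fit) in neurons with against without a UMI of the marker named on the vertical axis, in red where the adjusted p was under 0.05; the Slc17a6 split is left out for scale. Markers are ordered by Gad1, from Npy at 0.59 to Slc17a8 at -0.53, and Gad2 and Slc32a1 do not keep that order.

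The Gad1 share of Gad1 and Gad2 UMIs, which compares the 2 enzymes within the same cells, was 30.5 ± 5.26% with Npy against 23.2 ± 1.62% without, 31.3 ± 3.08% with Prkcd against 23.4 ± 1.99%, and 30.2 ± 5.12% with Nkx2-1 against 23.4 ± 1.58%. Each was higher in 4 of 4 libraries (exact sign-flip p = 0.125, the smallest possible). With Pdyn (20.9 ± 1.95%) and with Isl1 (21.1 ± 1.67%) the share was lower than without in 4 of 4 libraries. So it was with Slc17a6, Slc17a8 (19.9 against 24.0%), Pnoc (22.2 against 24.4%), Nts, Nr2f2 and Meis2. With Lhx6 (26.5 against 23.1%) it was higher in 4 of 4. With the rest of the 27 markers the libraries went both ways, and these p-values were not adjusted over markers.

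The glutamate genes had their own marker pattern. Slc17a8 was higher in neurons with Meis2 (3.57, SE 0.23, edgeR adjusted p = 2.63e-14), Nts, the gene of neurotensin (3.42, SE 0.17, adjusted p = 1.35e-31), Foxp2, Nr2f2, Calb2 and Isl1. It had 0 UMIs in the 217 neurons with Npy and the 112 with Nkx2-1, and 2 UMIs in the 268 with Lhx6. Slc17a6 was higher with Calb2, the gene of calretinin (2.45, SE 0.16, adjusted p = 2.51e-12), Zic1 (2.25, SE 0.15, adjusted p = 5.73e-18) and Tshz1 (0.92, SE 0.19, adjusted p = 0.00975). It had 0 UMIs in the neurons with Lhx6, Lhx8 or Nkx2-1. Calb2 was thus the marker with more of both genes, and both of its calls held after thinning, as did those of Slc17a8 with Nts and Meis2. Those of Slc17a6 with Zic1 and of Slc17a8 with Foxp2, Nr2f2 and Isl1 did not, and Slc17a6 with Tshz1 was not tested there. With glutamate-leaning neurons left out, Slc17a6 was still called higher with Calb2 (1.19) and Zic1 (1.67), and with Tshz1 its direction turned (-1.63, adjusted p = 0.615).

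Neuron clusters, made without the 6 genes, gave the same picture as levels. Of 16 clusters, 14 had at least 10 cells in 2 or more libraries. Slc17a6 was at 851, 953, 752 and 576 CPM in cluster 3 (108 cells, led by Nrn1 and Bdnf), where Gad2 was at 209, 672, 839 and 379 CPM, Gad1 at 16.3, 45.4, 43.4 and 0 CPM and Slc32a1 at 17.0 ± 18.3 CPM. Outside cluster 3, Slc17a6 was highest at 51.5 ± 35.2 CPM in cluster 12, whose 322 cells had a median of 884 UMIs and had 5 non-neuronal markers among their 10 leading genes, so it is unnamed. Slc17a8 was at 358, 483, 780 and 809 CPM in cluster 4 (199 cells, led by A730046J19Rik and Lmo4) and at most at 16.2 CPM on average elsewhere. In cluster 4 Gad2 was at 1806 ± 160 CPM and Slc32a1 at 450.2 ± 36.2 CPM, and 89.2% of draws at 1000 UMIs held a GABA gene.

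Outside cluster 3, mean Gad1 levels spanned 421 to 1516 CPM over these clusters. Gad1 was at 1448, 1046, 2114 and 1457 CPM in cluster 8 (175 cells, led by Npy and Sst), where it made up 40.7% of Gad1 and Gad2 UMIs, and at 421 ± 128 CPM in cluster 13 (led by Ppp1r1b and Arpp21), where it made up 19.7%. The share was 38.9% in cluster 14 (led by Tshz1 and Foxp2) and 31.9% in cluster 9 (led by Prkcd and Ezr), in both of which Gad2 was low (1219 ± 302 and 1493 ± 209 CPM). These shares of clusters are pooled over libraries. In cluster 14, Gad1 had 45, 17, 26 and 68 UMIs in libraries 1 to 4 and Gad2 had 47, 52, 54 and 92. Over all neurons split by marker, the share was 23.3% with Tshz1 against 23.8% without, and 24.1% with Foxp2 against 23.8%. Gad2 was highest in cluster 11 (59 cells, led by Crh and Tac2) at 3022 ± 327 CPM. In these clusters other than 3, Slc32a1 lay between 364 and 561 CPM on average.

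**Figure D5:**
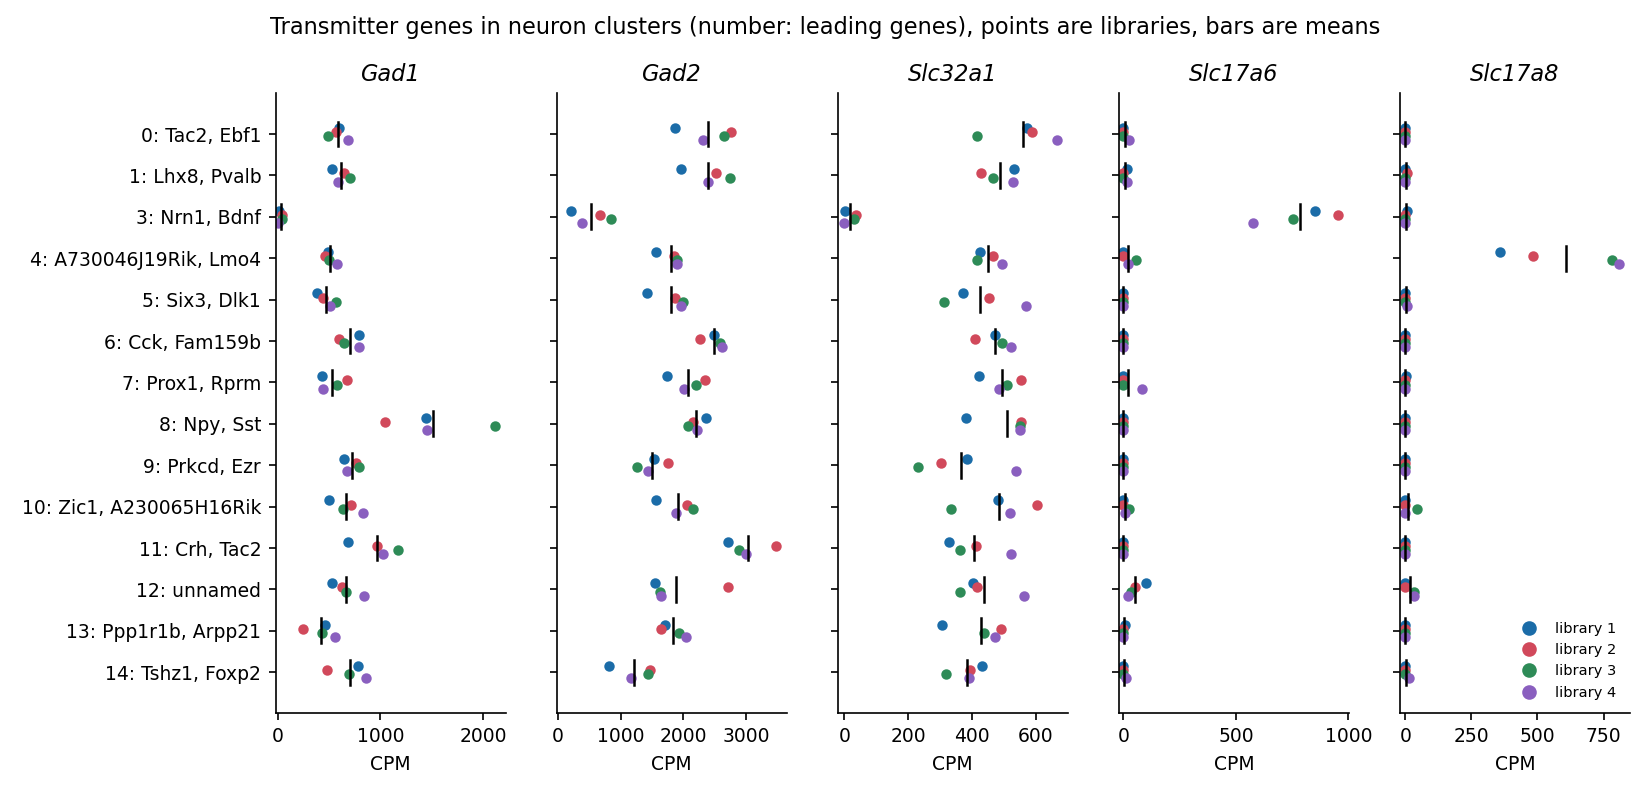
CPM of 5 genes (horizontal axes, scaled per gene) in the 14 neuron clusters with at least 10 cells in 2 or more libraries (vertical axis, cluster number and 2 leading genes, without genes for cluster 12); points are libraries and bars are means. Slc17a6 peaks in cluster 3 and Slc17a8 in cluster 4, Gad1 and Slc32a1 are near 0 only in cluster 3, and Gad1 is highest in cluster 8.

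Over 58 sums of a cluster in a library, the genes most like Gad1 among 10573 genes with at least 50 UMIs were Slc32a1 (Pearson r = 0.93 of log2(CPM + 1)), Gad2 (0.78) and Dlx6 (0.74). Dlx6 also came after the other 2 GABA genes for Gad2 (0.67) and for Slc32a1 (0.76). The genes most like Slc17a6 were Nrn1 (0.75), Bdnf (0.66) and Otp (0.65), and those most like Slc17a8 were Lmo4 (0.52), A730046J19Rik (0.52) and Mycbp2 (0.46). These values are descriptions, since the sums share libraries, and cluster 3 weighs on those of the GABA genes and Slc17a6.

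Genes that accompany the transmitter choice were compared between 82 glutamate-leaning neurons (at least 2 UMIs of Slc17a6 and Slc17a7 and more of these than of the 3 GABA genes; 47, 16, 7 and 12 cells) and 2144 GABA-leaning neurons. Since library 3 held 7 of the first, p-values are from the fit of the other 3 libraries, where 2.34% of 9478 genes were called. Of 37 listed lineage factors 25 were tested, and 8 rose and 13 fell, with a median log2 difference of -3.03, or -1.85 with the 9 genes at 0 UMIs in a group set to their bound, against -0.06 over all genes. DESeq2 on all 4 libraries called 15. Otp, a hypothalamic and amygdala factor, was at 120, 119, 120 and 45.8 CPM in glutamate-leaning neurons and at 0.558 CPM or less in the others (7.62, SE 0.60, edgeR adjusted p = 3.67e-33). Nhlh2 (7.12, SE 0.69), Tbr1 (6.45, SE 0.75), Neurod1, Lhx5, Tcf7l2, Sim1 and Zic1 also rose. Dlx2, Dlx5, Dlx6os1, Lhx6, Lhx8 and Sp9 had 0 UMIs in the 82 cells and were called lower. Lhx6 was at 50.3 ± 10.4 CPM in GABA-leaning neurons and thus at least 7.81-fold lower in the others, from a floor of 3 counts over the group. Dlx1, Dlx6, Isl1, Meis2, Six3 and Foxp2 fell too.

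The genes that take up and convert the transmitters did not follow the split. Of 20 listed genes, 18 were tested and 0 were called by edgeR or DESeq2, with 1 at an unadjusted p under 0.05 and a median log2 difference of -0.17. Abat, the GABA transaminase, was at 147, 238, 192 and 160 CPM in glutamate-leaning and 190, 208, 237 and 196 CPM in GABA-leaning neurons (-0.25, SE 0.22, edgeR adjusted p = 0.857), and the ranges overlap. Of 12 genes of other transmitters 3 were tested and 1, Nos1, rose, at 174, 304, 168 and 275 CPM against 43.8, 32.2, 70.0 and 77.7 CPM (2.21, SE 0.26, adjusted p = 2.26e-15). The Nos1 values did not overlap.

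All called genes but the 6 were also ranked, whether listed or not. The largest rises among those higher in 4 of 4 libraries were in 1500016L03Rik (7.65, SE 0.63), Otp, Mab21l1 (7.17, SE 0.97), Nhlh2 and Lhx1 (6.85, SE 0.68). Otp and Nhlh2 are the listed lineage factors given above. Among the largest falls in the fit without library 3 were those of Avp, the gene of vasopressin, and of Dlx6, Dlx6os1 and Lhx6 from the lineage list. The 1 UMI of Dlx6 in glutamate-leaning neurons was in library 3, and its log2 difference was -9.64 in that fit and -5.13 over all 4 libraries. Dlx6 and Dlx6os1 overlap on opposite strands, so their falls are not separate results. Avp had 0 UMIs in glutamate-leaning neurons and 960 in GABA-leaning ones (at least 17.9-fold lower). The cluster led by Avp and Gal held 27 cells, 1.08% of neurons. With 82 glutamate-leaning cells, a lower level of Avp cannot be told apart from the absence of so rare a cell type.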

How the data were processed

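The authors deposited 1 table per library of whole-number UMI counts, genes by barcode; bcl2fastq 2.18.0.12, STAR 2.4.2a and Picard 2.2.4 with mm10 (GRCm38) are named in the submitters' processing notes, and the strand setting of the counting is not given in the sources used here. From these counts, barcodes with at least 400 genes and at most 10% mitochondrial UMIs were kept, and 58 of 4239 (1.37%) called by Scrublet (expected rate 0.05) were left out as doublets. A class needed UMIs of at least 3 of its 8 markers and a lead of 2, and none of the 6 genes was a marker. The members, gene lists and comparisons were chosen with earlier results of these data known.

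Each class gave 1 sum of raw counts per library, from at least 10 cells, and the sums were tested with edgeR 4.0.16 (quasi-likelihood, TMM, filterByExpr, library as block) in R 4.3.3, with Benjamini-Hochberg adjustment over all genes tested at 0.05. The SE of a log2 fold was taken as its size over the square root of F. In the companion comparison the genes named were list members past the threshold and the 5 largest rises and falls that went the same way in every library; likeness names the 3 most correlated genes. Neurons were clustered with scanpy 1.11.5 (2000 variable genes without the 6, 30 components, Leiden resolution 1). Co-detection used the hypergeometric chance of a gene among 1000 UMIs. Alternatives were DESeq2 1.42.0, RLE size factors, no filter on low counts, no block, 800 genes, 5% mitochondrial UMIs, doublets kept, a lead of 3, each library left out, and 500 or 2000 UMIs. Tested on simulated data with 200 genes changed 2-fold, the fits recovered 60.5% (neurons against glial classes, 3143 genes), 80.0% (Dlx gates, 9166 genes), 31.0% (companions, 8691 genes) and 40.5% (Slc17a8 split, 8406 genes). Some genes of the lists are counted in them and not reported here by name.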

Additional observations from a re-analysis of the deposited data

Results flagged for a closer look

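Over 44 sets of 4 library values that were searched, 3 held a library far from the other 3, where chance gives about 1 in 20. Gad2 in astrocytes was at 13.3 CPM in library 2 and at 66.8 to 68.9 CPM in the others. Of draws with Slc32a1, 79.0% also held Gad2 in library 1, against 85.1 to 85.4% in the others. Of draws with Slc17a6, 9.80% held Slc32a1 in library 4, against 0 to 1.09% in the others.

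Barcodes with under 400 genes, which no test used, held the transmitter genes above their level in kept glia, where the 5 pooled levels were 12.1, 44.3, 3.73, 1.40 and 1.40 CPM in the order below. Pooled over the barcodes, Gad1 was at 282 CPM, Gad2 at 1060 CPM, Slc32a1 at 224 CPM, Slc17a6 at 35.1 CPM and Slc17a8 at 30.2 CPM.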

How the results depend on the processing

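Of the values that answer a comparison, 145 of 158 recomputed under an alternative kept their direction and side of the threshold or stayed within the limits set for a count. Of those for single genes, 878 of 1029 did, 147 were no longer past the threshold, 2 came past it and 2 reversed. Both were Slc17a6 with glutamate-leaning neurons left out, at -1.63 with Tshz1 and 0.66 with Isl1, neither past the threshold. Against glia, 5 in place of 3 transmitter genes were called with a minimum of 800 genes, 5 with no filter on low counts and 5 with all glial cells summed, since more of them were tested. In Dlx-family neurons 1 in place of 3 was called after thinning to 1000 UMIs, where 3 genes were tested. Over the marker splits, calls of GABA genes went from 22 to 12 with DESeq2 and 3 after thinning, and to between 14 and 18 with 1 library left out, the lowest without library 1. Calls of glutamate genes went from 39 to 5 after thinning, where 4 of 26 fits of Slc17a6 and 14 of 26 of Slc17a8 were tested, and to 22 with glutamate-leaning neurons left out, where 15 and 25 were. Companion genes with a log2 difference of 1 or more went from 22 to 45 with no filter on low counts, where more genes were tested. The mean log2 ratio of GABA genes with Slc17a8 reversed from 0.02 to -0.12 at 500 UMIs. Summing glia, thinning the fits and leaving out glutamate-leaning neurons or neurons with a myelin UMI were chosen after seeing the data. Where no cause is named, the cause was not tested.

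Library is the replicate block of every fit, since both sums come from the same pool of mice. Without the replicate block, calls over the marker splits fell to 3 for GABA genes and 22 for glutamate genes. The contrast of excitatory-lineage against Dlx-family neurons was not run at 5% mitochondrial UMIs or after thinning, where a library held fewer than 10 cells.

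With 4 pools, sign-flip tests cannot reach the threshold. Slc17a6 and Slc17a8 rest on 127 and 126 neurons, glial values on few UMIs, and free RNA, doublets and true co-expression were not separated cell by cell.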

Other observations

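Within the 98 neurons with at least 2 Slc17a6 UMIs, those with at least 2 Gad2 UMIs (23) and those with none (67) held other genes in the following numbers of cells. These genes and the split were chosen after values were seen, so the counts are a description with no test. Isl1, a LIM-homeodomain factor, had a UMI in 5 of the 23 and 0 of the 67, Onecut2, a cut-homeodomain factor, in 9 and 3, and Acvr1c, an activin-type receptor, in 7 and 2. Lhx1, another LIM-homeodomain factor, had a UMI in 1 of the 23 and 15 of the 67, Nos1 in 3 and 30, Otp in 4 and 19, and Gal, the gene of galanin, in 1 and 12. Nrn1 and Bdnf, which led the cluster that held most Slc17a6, were in 16 and 9 of the 23 and in 45 and 26 of the 67.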
